A study of Mus musculus with 4 samples.

Results

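Dynein arm assembly factors are cytoplasmic proteins that fold and join the subunits of ciliary dynein before the finished arms travel to the cilium. The 10 genes described here were chosen by name as known members of this group: Dnaaf1, Dnaaf2, Dnaaf3, Dnaaf4, Dnaaf5, Dnaaf11, Zmynd10, Spag1, Cfap298 and Cfap300. All 10 were found among the 21931 genes of the deposited table, where Dnaaf11 is listed under its older symbol Lrrc6. RNA was taken from fresh lung of C57BL6 mice aged 2 months that received no treatment, and 4 libraries were sequenced to look for expression changes on loss of Dnah9, which encodes an outer arm heavy chain. The wild type had 1 library, the Dnah9 knockout had 2 (called knockout 1 and knockout 2), and 1 library was labelled Hez. What Hez stands for is not said, so it is treated as a group of its own. The sources used here do not give the deleted part of Dnah9, the sex of the mice or any pooling of animals.

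Motile cilia beat because outer and inner dynein arms pull on neighbouring microtubule doublets. The arms are large complexes of heavy, intermediate and light chains. They are put together in the cytoplasm with the help of general chaperones such as HSP90 and of dedicated assembly factors. Loss of such a factor leaves cilia without arms and causes primary ciliary dyskinesia, in which mucus is not cleared from the airways. In the lung, motile cilia stand on multiciliated cells of the airway epithelium, a small part of all lung cells.

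Assembly factor genes are switched on in multiciliated cells by FOXJ1 together with RFX proteins, which bind a sequence called the X-box. Promoter sequences from 250 bases before to 50 bases after the transcription start were at hand for 7 of the 10 members (RefSeq, build GRCm38.p6, an older build than the GRCm39 of the expression table), and Dnaaf1, Dnaaf11 and Spag1 were not among them. The full X-box (both strands, a spacer of 0 to 3 bases between its half-sites) was found in 2 of these 7 promoters, those of Dnaaf2 and Cfap298, and in 1.59% of all 27025 promoters of the same length. The half-site GTTGCC, searched on both strands and overlapping the X-box where that is present, was found in 6 of 7, Dnaaf3 being the exception, and in 12.7% of all promoters. The FOXJ1 core GTAAACA was found in 0 of 7 and in 3.55% of all promoters. A match is a description of the letters and not a bound site. The following stretches are shown because they hold the X-boxes and, for Cfap300, a half-site that stands alone. Capitals mark the match, and each is read 5′ to 3′ on the strand of the gene, here the minus strand.
Cfap298, far X-box, chr16:90935000-90935061: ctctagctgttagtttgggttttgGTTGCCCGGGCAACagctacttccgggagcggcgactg
Cfap298, near X-box, chr16:90934880-90934942: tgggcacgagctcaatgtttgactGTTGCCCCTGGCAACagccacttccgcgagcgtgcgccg
Dnaaf2, X-box, chr12:69198430-69198470: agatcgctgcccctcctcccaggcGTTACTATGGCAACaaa
Cfap300, half-site, chr9:8042968-8043021: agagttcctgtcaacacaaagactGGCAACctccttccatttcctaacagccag
Both Cfap298 matches read as an X-box on either strand, and the Dnaaf2 match reads as one on the opposite strand.

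Libraries held 15860478 to 16553480 reads in genes. Dnah9 stood at 56.6 CPM (reads scaled to a common library size, with TMM factors) in wild type, 25.4 in Hez, 14.8 in knockout 1 and 15.98 in knockout 2. Against wild type, the knockouts' Dnah9 RNA fell by 1.88 in log2 units (SE 0.145, edgeR adjusted p = 0.00864). It did not pass the test against Hez (log2 fold -0.73, SE 0.152, edgeR adjusted p = 0.599) or against both together (-1.41, SE 0.321, edgeR adjusted p = 0.585). The test is edgeR's quasi-likelihood test with Benjamini-Hochberg adjustment over the 15055 genes that passed a filter on low counts, with a threshold of 0.05. Wild type and Hez had 1 library each. In the tests against either alone, the spread therefore comes from the knockout pair and from the trend over all genes. In the test against both as 1 group, the difference between wild type and Hez also enters the spread. The labels do not say whether the 2 knockout libraries came from separate litters or preparations. The p-values thus measure only how these samples vary, and the spread of the knockout pair may be technical. The defining markers of multiciliated cells were detected in all libraries: Foxj1 had 1127 to 1680 reads and 0 of 20 markers were at 0 reads.

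Expressed per gene length as FPKM, the assembly factors spanned a wide range. Cfap298 was highest on average at 7.56 FPKM, followed by Dnaaf5 at 6.23, Cfap300 at 5.78, Dnaaf11 at 4.89, Zmynd10 at 3.698, Dnaaf3 at 3.36 and Dnaaf1 at 2.86. Each of these 7 genes overlapped its neighbour in that order when the ranges over the 4 libraries were compared. Spag1 at 0.983, Dnaaf2 at 0.282 and Dnaaf4 at 0.016 FPKM each stood below the gene before it in every library. Spag1 is listed at a length of 11167 bases, against 1589 to 3514 for the other members. Not scaled by length, it stood at 12.9 CPM in wild type, below Dnaaf5 and Dnaaf11 alone. For comparison, Foxj1 averaged 29.9 FPKM and the HSP90 gene Hsp90ab1 381.5.

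Dnaaf4 was almost unseen. It encodes a co-chaperone with TPR repeats that links client dynein chains to HSP90 and to the chaperonin. The table lists 0 reads for it in wild type, Hez and knockout 1, and 2 reads in knockout 2, and 0 reads allow up to 0.185 CPM in wild type (3 reads, counting error only). It did not pass the filter and was not tested. Dnaaf4 (ENSMUSG00000092192, chromosome 9, 72866067 to 72880346 on GRCm39) overlaps Gm44503, a longer gene on the same strand that also runs across Ccpg1. Gm44503 was listed at 0 reads in all 4 libraries, and Ccpg1 at 16 in wild type, 13 in Hez, and 13 and 12 in the knockouts. In GENCODE M21, 59.2% of the exon bases of Dnaaf4 also belong to Gm44503.

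Dnaaf2, the PIH-domain co-chaperone also known as kintoun, shares 38.7% of its exon bases with Gm49383 and Gm49384 on its own strand, both listed at 0 reads in all libraries. The other 8 members shared 0% to 3.87%. Among protein-coding genes of the table, 67.6% of the 398 with at least 50% shared exon bases had at most 2 reads in every library, against 23.8% of the 21023 with under 10%. Of the 338 genes between 10% and 50%, 18.6% did so, and their median FPKM was 1.01 against 2.50 below 10%. The sources used here do not say how reads that lie in 2 genes were counted, and the part of shared exons in the low values of Dnaaf4 and Dnaaf2 was not tested.

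No assembly factor passed the test between knockout and wild type. Of the 9 members tested, 0 were called, beside 8 of all 15055 genes (0.0531%), and genes called lower made up 0.0399% of all. Dnaaf11 was the 1 member with an unadjusted p below 0.05, beside 5.18% of all genes in either direction and 3.37% of all genes on the lower side. DESeq2 gave an adjusted p for 1 of the 9 members, Dnaaf5, which was not called, and none of the 9 had an unadjusted p below 0.05 there. In 8 of 9 the fitted log2 fold was below 0, beside 48.9% of all genes, and the median was -0.32 beside 0.00 over all genes. Both knockout libraries lay below wild type for 6 of 9 members, beside 33.4% of all genes, and above it for 0 of 9, beside 33% of all genes. The same 6, Dnaaf1, Dnaaf3, Dnaaf11, Zmynd10, Spag1 and Cfap300, had wild type as the highest of all 4 libraries, beside 25.2% of all genes.

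**Figure D1:**
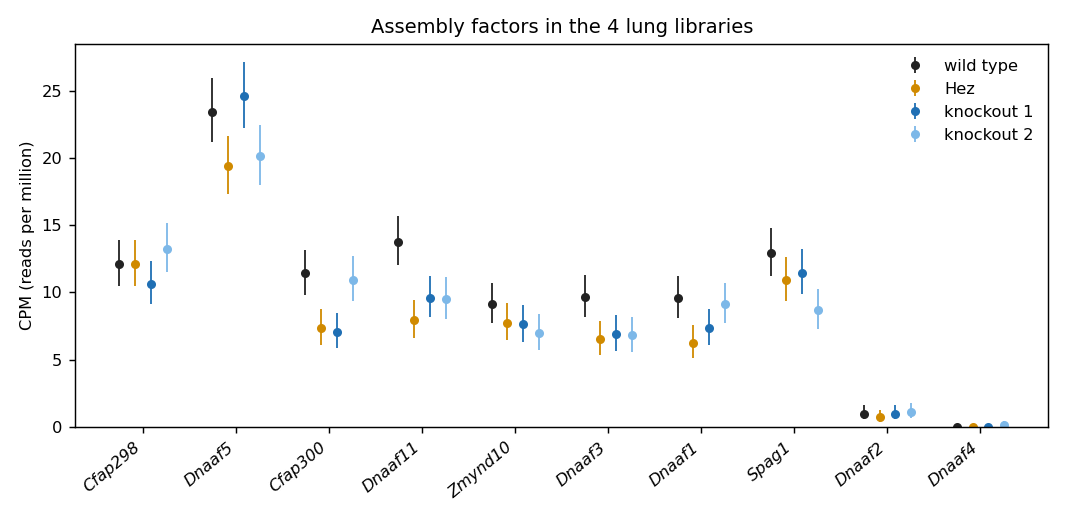
CPM of each assembly factor in wild type, Hez, knockout 1 and knockout 2, ordered by mean FPKM; bars are 95% exact Poisson intervals and cover counting error only. Wild type is the highest of the 4 for 6 genes, while Dnaaf2 stays near 1 CPM and Dnaaf4 near 0.

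Dnaaf11 and Zmynd10 encode partners that bind each other, a leucine-rich repeat protein and a MYND zinc finger protein. Dnaaf11 (ENSMUSG00000022375, chromosome 15, 66251707 to 66372759) had 223 reads in wild type, 131 in Hez, 156 in knockout 1 and 151 in knockout 2, or 13.8, 7.92, 9.59 and 9.4996 CPM. The knockout libraries lay close together, at 9.54 ± 0.0631 CPM (SD, n = 2), below wild type and above Hez. The log2 fold against wild type was -0.53 (SE 0.224, 95% interval -1.04 to -0.01), with edgeR's adjusted p = 0.947. This was the largest of the 9 fitted differences from wild type, and the other 8 intervals held 0. Zmynd10 (chromosome 9, 107424497 to 107428518) had 148 reads in wild type, 128 in Hez, 124 in knockout 1 and 111 in knockout 2, or 9.13, 7.74, 7.62 and 6.98 CPM. It was the single member with both knockout libraries below both wild type and Hez, beside 16.3% of all genes. Its log2 fold against wild type was -0.32 (SE 0.259, 95% interval -0.92 to 0.27, edgeR adjusted p = 0.996).

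Dnaaf1 and Dnaaf3 encode a leucine-rich repeat protein and a protein required for assembly of both kinds of arm. Dnaaf3 (ENSMUSG00000055809, chromosome 7, 4525932 to 4535452) had 156 reads in wild type, 108 in Hez, 112 in knockout 1 and 108 in knockout 2, or 9.63, 6.53, 6.88 and 6.79 CPM. Knockout and Hez libraries thus stood together, at 67.9% to 71.5% of wild type. The log2 fold against wild type was -0.49 (SE 0.26, 95% interval -1.09 to 0.11, edgeR adjusted p = 0.996). The span of Dnaaf3, introns included, overlaps that of the cardiac troponin gene Tnni3 by 1297 bases on the same strand. In GENCODE M21, 3.87% of the exon bases of Dnaaf3 are shared with Tnni3. Tnni3 had 1018 reads in wild type, 1002 in Hez, and 563 and 740 in the knockouts. What the overlap contributes to the Dnaaf3 values was not tested. Dnaaf1 (chromosome 8, 120301974 to 120325193) had 155 reads in wild type, 103 in Hez, 119 in knockout 1 and 145 in knockout 2, or 9.56, 6.23, 7.31 and 9.12 CPM. Knockout 2 stood near wild type and knockout 1 nearer to Hez. The log2 fold was -0.22 (SE 0.27, 95% interval -0.84 to 0.40, edgeR adjusted p = 0.996). In GENCODE M21, 20.7% of its exon bases lie opposite those of Taf1c, which had 144 reads in wild type, 142 in Hez, 174 in knockout 1 and 153 in knockout 2, and the strand setting of the counting is not given.

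Spag1, Dnaaf2 and Dnaaf5 are scaffold or co-chaperone genes. Spag1 carries TPR repeats of the kind that hold HSP90 and HSP70. Spag1 (chromosome 15, 36178245 to 36235767) had 209 reads in wild type, 180 in Hez, 186 in knockout 1 and 138 in knockout 2, or 12.9, 10.9, 11.4 and 8.68 CPM. The Hez value lay between the knockouts, and the log2 fold against wild type was -0.36 (SE 0.248, 95% interval -0.93 to 0.21, edgeR adjusted p = 0.996). Dnaaf5, a HEAT-repeat protein, had the most reads of all members: 380 in wild type, 321 in Hez, 400 in knockout 1 and 320 in knockout 2, or 23.4, 19.4, 24.6 and 20.1 CPM. Wild type lay between the knockouts, and the log2 fold was -0.07 (SE 0.184, 95% interval -0.49 to 0.36, edgeR adjusted p = 0.996). Dnaaf2 had 16 reads in wild type, 12 in Hez, 16 in knockout 1 and 18 in knockout 2. At this depth the interval of its log2 fold ran from -1.49 to 1.69, so a change of 2-fold in either direction was not detectable.

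Cfap298 and Cfap300 encode small proteins without which dynein arms are missing from the axoneme. Cfap298 (ENSMUSG00000022972, chromosome 16, 90722697 to 90732002) had 196 reads in wild type, 200 in Hez, 173 in knockout 1 and 210 in knockout 2, or 12.1, 12.1, 10.6 and 13.2 CPM. Wild type and Hez both lay between the knockouts. The log2 fold against wild type was -0.02 (SE 0.232, 95% interval -0.56 to 0.51, edgeR adjusted p = 0.996), and its promoter is the one shown above with 2 X-boxes. Cfap300 (ENSMUSG00000053070, chromosome 9, 8021673 to 8042824) had 185 reads in wild type, 121 in Hez, 115 in knockout 1 and 174 in knockout 2, or 11.4, 7.32, 7.07 and 10.9 CPM. Knockout 1 stood with Hez and knockout 2 with wild type. The log2 fold against wild type was -0.34 (SE 0.302, 95% interval -1.04 to 0.35, edgeR adjusted p = 0.996).

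**Figure D2:**
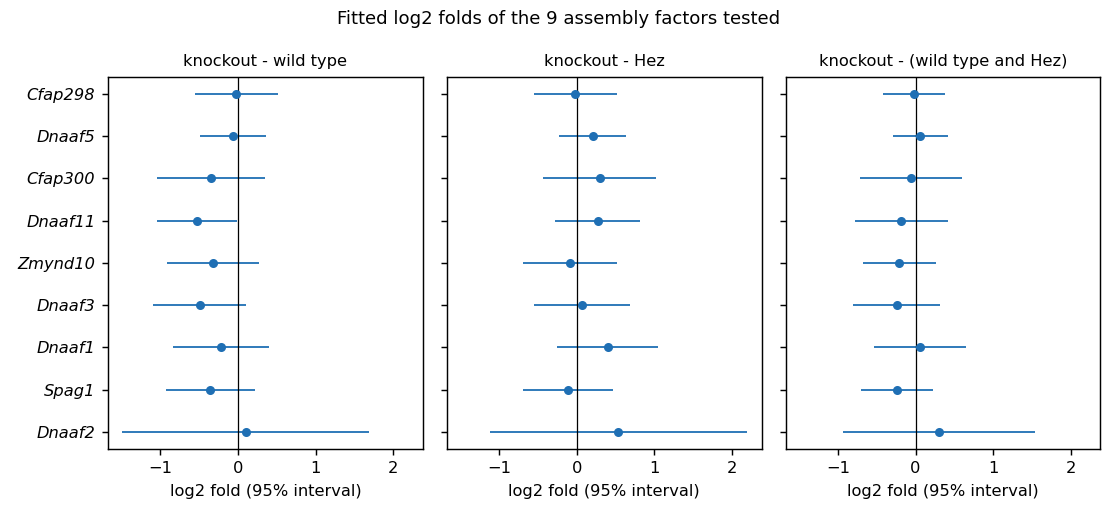
Fitted log2 folds of the 9 members tested, with 95% intervals from the edgeR fit, for knockout against wild type, against Hez, and against both together. Points lie mostly left of 0 against wild type and on both sides against Hez, and in each panel at most 1 interval leaves out 0.

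The knockout libraries differed for some members, in shares not far from those over all genes. Knockout 1 was the lower of the pair for 4 of 9, beside 50.3% of all genes. The counting interval of the ratio of knockout 2 to knockout 1 left out 1 for 4 of 9 members, beside 33.4% of all genes. Knockout 2 was higher for Cfap300, at 1.55 times knockout 1 (95% exact binomial interval 1.22 to 1.98), and for Cfap298, at 1.24 times (1.01 to 1.53). It was lower for Spag1, at 0.759 times (0.605 to 0.952), and for Dnaaf5, at 0.819 times (0.705 to 0.951). Against wild type, the counting interval lay below 1 for 4 of 9 members in knockout 1 (15.8% of all genes) and for 5 of 9 in knockout 2 (17.7%). Dnaaf3 and Dnaaf11 were the 2 members for which it did so in both, beside 7.74% of all genes. Intervals of this kind cover counting error only, not the spread between mice.

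The Hez library lay below wild type for 8 of 9 members, beside 50.4% of all genes, with a median difference of -0.39 in log2 CPM beside 0.00 over all genes. With 1 library on each side, these differences carry no spread of their own. The 3-group fit, which takes its spread from the knockout pair, was applied to this comparison after the data had been seen: it called 0 of 9 members, beside 0.0133% of all genes. Dnaaf11 alone had an unadjusted p below 0.05, beside 4.55% of all genes, with a log2 fold of -0.80 (SE 0.267, edgeR adjusted p = 0.996). The largest differences were -0.79 for Dnaaf11, -0.63 for Cfap300, -0.61 for Dnaaf1 and -0.55 for Dnaaf3, and Cfap298 stood at 0.00. These 4 were the members more than 0.4 below wild type, beside 11.1% of all genes. Dnaaf2 stood just short of that cutoff at -0.39 and past it at -0.43 with a prior count of 0.5. The count of 4 thus depends on the cutoff and the prior count. The counting interval of Hez over wild type lay below 1 for 5 of 9 members, beside 16.1% of all genes. Hez was the lowest of the 4 libraries for 5 of 9 members, Dnaaf1, Dnaaf2, Dnaaf3, Dnaaf5 and Dnaaf11, beside 25.4% of all genes.

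Against Hez, most members stood higher in the knockouts, with no call. The test called 0 of 9 members, beside 0.00664% of all genes, 0 had an unadjusted p below 0.05 (beside 4.61%, and 2.11% on the lower side), and DESeq2 also called 0. The log2 fold was below 0 in 3 of 9, beside 47.5% of all genes, with a median of 0.20 beside 0.01 over all genes. It ranged from -0.11 for Spag1 (SE 0.252) to 0.54 for Dnaaf2 (SE 0.721). Both knockout libraries were above Hez for 5 of 9 members, beside 34.2% of all genes, and both below it for Zmynd10 alone, beside 31.9%. This comparison uses the same knockout libraries as the comparison with wild type. With wild type and Hez taken as 1 group of 2, the test again called 0 of 9 members, beside 0.0133% of all genes, 0 had an unadjusted p below 0.05 (beside 5.07%, and 2.63% on the lower side). DESeq2 again gave an adjusted p for Dnaaf5 alone, with no call, and for 0 of 9 members an unadjusted p below 0.05. The log2 fold was below 0 in 6 of 9, beside 49.7% of all genes. The median was -0.06 with both reference libraries, -0.32 without Hez and 0.20 without wild type. The folds ran from -0.24 for Spag1 (SE 0.2) to 0.30 for Dnaaf2 (SE 0.538), and all 9 intervals held 0.

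In whole lung, fewer ciliated cells and less RNA per cell cannot be told apart. Nor do these data show which cell types the reads of a member came from. The summed CPM of 20 markers of multiciliated cells was 882.9 in wild type, 586.2 in Hez, 613.3 in knockout 1 and 638.7 in knockout 2, or 66.4%, 69.5% and 72.3% of wild type. All 20 had a log2 fold below 0 against wild type, beside 48.9% of all genes, with 0 called, beside 0.0531%. Both knockout libraries lay below wild type for all 20, beside 33.4% of all genes. In edgeR, 14 of the 20 had an unadjusted p below 0.05 on the lower side, beside 3.37% of all genes. Among the 4 most abundant, Ccdc153 stood at -0.53 (SE 0.101) and Tmem212 at -0.46 (SE 0.156). The summed CPM of the 10 assembly factors was 76.6% of wild type in Hez, 83.7% in knockout 1 and 84.2% in knockout 2. Per gene, the difference from wild type was smaller than that of the marker sum for 6 of 9 members in Hez, 8 in knockout 1 and 6 in knockout 2, and for 4 members in all 3. Those 4 were Dnaaf2, Dnaaf5, Zmynd10 and Cfap298. The marker sum stood at -0.59, -0.53 and -0.47 in log2 units in Hez, knockout 1 and knockout 2. Over all genes tested the median difference was -0.002, -0.003 and 0.001. Most genes thus also stood above the marker sum, and these counts are no trait of the members. Dnaaf3 and Dnaaf11 stood within 0.20 log2 units of the marker sum in each library. What the marker level contributes to the members' values was not tested.

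**Figure D3:**
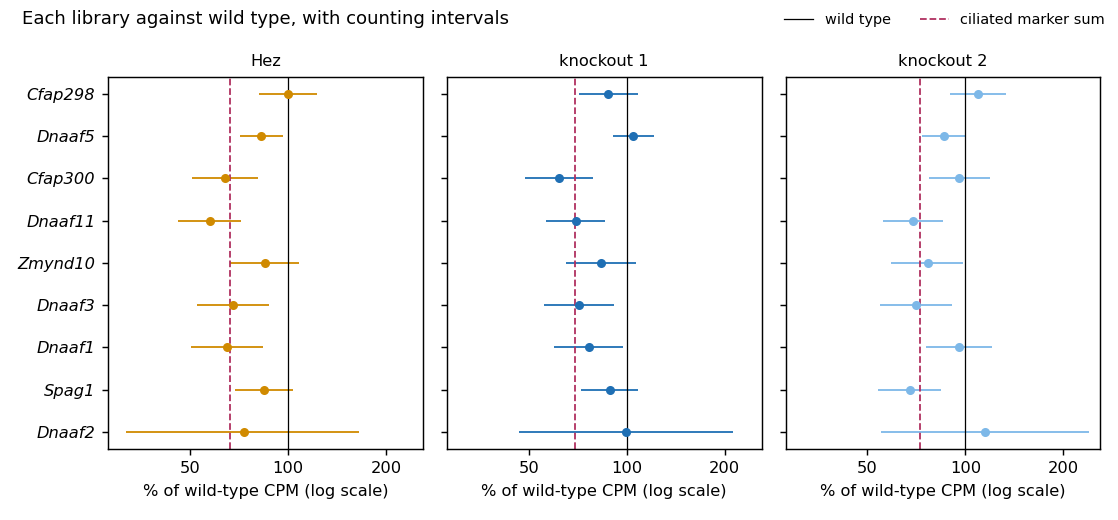
CPM of the 9 members in Hez, knockout 1 and knockout 2 as a percentage of wild type on a log scale; bars are 95% exact binomial counting intervals, and the dashed line is the summed CPM of 20 ciliated cell markers (66.4%, 69.5% and 72.3%). Dnaaf11 and Dnaaf3 lie near the dashed line in each panel, and Cfap298 near 100%.

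Marker sums of other cell types also differed between libraries. Summed CPM of 8 club cell markers stood at 79.8% of wild type in Hez and at 83.5% and 71.8% in the knockouts. Most of that sum was 1 gene, Scgb1a1, at 16729.2 of 24492.6 CPM in wild type. The median log2 CPM difference of club cell markers from wild type was -0.68 in Hez, and -0.56 and -0.72 in the knockouts. For the ciliated cell markers that median was -0.62, -0.53 and -0.47. Summed CPM of 8 smooth muscle markers stood at 60.4%, 78.5% and 69.4% of wild type, in the same order. Alveolar type 2 markers stood at 102.6%, 117.6% and 111.6%, alveolar type 1 markers at 111.7%, 108.7% and 104.1%, endothelial markers at 111.9%, 108.9% and 111.1%, and immune markers at 92.8%, 130.5% and 105.5%. Germ cells, which also assemble dynein arms, left little trace: 8 testis markers summed to 1.63 to 2.20 CPM, with 4 to 6 of them at 0 reads in each library. Against wild type the test called 3 of the 8 club cell markers, all lower, and 0 of the other lists. Of all genes, 0.0531% were called and 0.0399% were called lower. Unadjusted p in edgeR was below 0.05 for 8 club cell and 7 smooth muscle markers, all lower. It was also below 0.05 for 6 alveolar type 2, 3 endothelial and 1 immune marker, all higher. Of all genes, 5.18% had such a p in either direction.

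The assembly factors' clients were compared next. Of 21 axonemal dynein subunits other than Dnah9, 19 had a log2 fold below 0 against wild type, beside 48.9% of all genes. The median was -0.45, and 0 were called, beside 0.0531% of all genes. In edgeR, 11 of the 21 had an unadjusted p below 0.05 on the lower side, beside 3.37% of all genes. The 4 most abundant were Dnali1, an inner arm light chain, at -0.40 (SE 0.142), Dnal4 at 0.00 (SE 0.174), the inner arm heavy chain Dnah6 at -0.63 (SE 0.101) and Dnai3 at -0.46 (SE 0.156). The summed CPM of all 21 stood at 72.2% of wild type in Hez and at 73.96% and 73.2% in the knockouts.

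Of 10 further assembly factors, 7 are in the table and 6 were tested, while Dnaaf8, Dnaaf9 and Dpcd are not analysed here. All 6 had a log2 fold below 0 against wild type, beside 48.9% of all genes, with a median of -0.16. In any comparison 0 were called, and against wild type 0 had an unadjusted p below 0.05 in edgeR. Ccdc103 had 87 reads in wild type, 47 in Hez, 38 in knockout 1 and 58 in knockout 2 (log2 fold -0.84, SE 0.408, edgeR adjusted p = 0.996). Daw1, which helps bring outer arms into the cilium, had 147 reads in wild type, 95 in Hez, 104 in knockout 1 and 79 in knockout 2 (-0.67, SE 0.294, edgeR adjusted p = 0.963). Both genes were thus at their highest in wild type. In CPM the same held for Wdr92, nearly level with Hez at 16.6 against 16.3 (269 and 270 reads). It also held for Ttc12 and Lrrc56, each nearly level with 1 knockout library. Wild type was the highest for 25.2% of all genes. Pih1d2 was highest in knockout 2. Ttc12 stood at -0.18 (SE 0.185), Lrrc56 at -0.14 (SE 0.209), Wdr92, also called Dnaaf10, at -0.10 (SE 0.186), and Pih1d2 at -0.05 (SE 0.291). Dnaaf6, placed on chromosome 1, was listed at 0 reads in all libraries. Dnaaf6b on the X chromosome, added after its values were seen, had 57 reads in wild type, 34 in Hez, 27 in knockout 1 and 45 in knockout 2.

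The general chaperones that work with these factors stood on both sides of 0. Of 19 co-chaperone and chaperonin genes, 7 had a log2 fold below 0, beside 48.9% of all genes, and 12 above. The median was 0.04 and 0 were called. In edgeR, 2 had an unadjusted p below 0.05, both higher, beside 5.18% of all genes in either direction. Ruvbl1 and Ruvbl2, the ATPases of the R2TP complex, stood at -0.003 (SE 0.16) and -0.19 (SE 0.12), and their partners Rpap3 and Pih1d1 at -0.10 (SE 0.18) and -0.11 (SE 0.176). The most abundant, Hsp90ab1 and Hspa8, stood at 0.20 (SE 0.0751) and 0.32 (SE 0.0753), with edgeR adjusted p = 0.831 and 0.445.

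Of 9 transcription factors and regulators of multiciliated cells, 8 had a log2 fold below 0, beside 48.9% of all genes. The median was -0.43 and 0 were called. In edgeR, 3 of the 9 had an unadjusted p below 0.05 on the lower side, beside 3.37% of all genes. Foxj1 had 1680 reads in wild type, 1131 in Hez, 1148 in knockout 1 and 1127 in knockout 2 (log2 fold -0.55, SE 0.0974, edgeR adjusted p = 0.273). Rfx2 and Rfx3, of the family that binds the X-box, stood at -0.02 (SE 0.164) and -0.20 (SE 0.149), and Myb, which acts early in multiciliated cell formation, at -0.50 (SE 0.181). For Foxj1, Hez and the knockouts stood at 68.4, 70.6 and 70.9 CPM, below wild type at 103.7. All 3 other libraries lay below wild type for 25.2% of all genes.

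**Figure D4:**
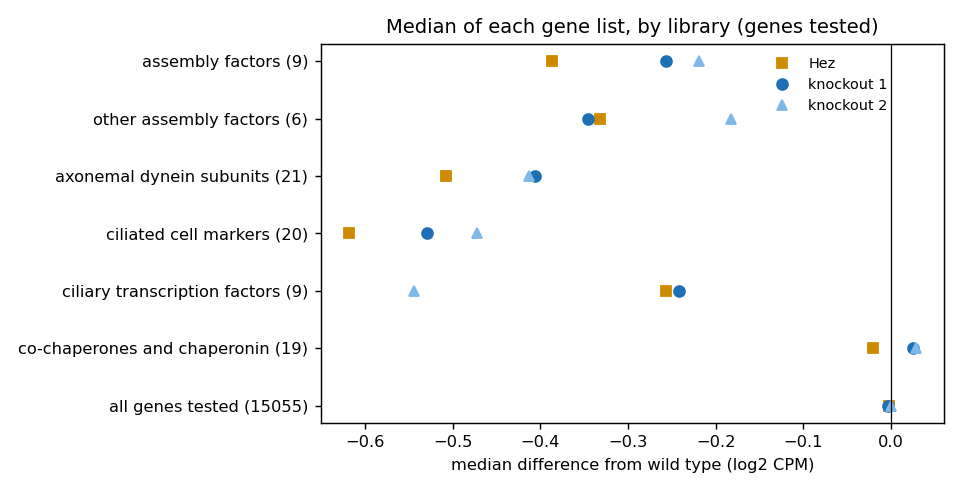
Median difference from wild type in log2 CPM for Hez, knockout 1 and knockout 2, over the tested genes of each list (number in brackets). The assembly factors lie at -0.39, -0.26 and -0.22, between the ciliated cell markers (-0.62, -0.53 and -0.47) and the co-chaperones, which lie near 0.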

How the data were processed

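The deposited table gives, per the file headers, read counts of each gene in the 4 libraries and the authors' FPKM, which equals count over library total and gene length for all 66024 values above 0 (relative tolerance 1e-06). The submitters' processing notes name GRCm39. The sources used here name no aligner, counter, annotation or strand setting. In edgeR 4.0.16 (R 4.3.3), TMM factors were 0.993 to 1.01 and filterByExpr used a minimum count of 10. Two-sided quasi-likelihood tests used a 3-group fit (1 residual degree of freedom) for wild type and Hez as separate references, and a 2-group fit (2 residual degrees of freedom) for both together. Standard errors are the size of the log2 fold divided by the square root of F, and intervals use 8.02 and 7.99 degrees of freedom. Log2 CPM differences use a prior count of 2. Chi-square per gene between libraries was 7.34 to 10.7, above sampling noise for every pair. Exon sharing comes from GENCODE M21 (GRCm38), matched by gene ID among genes of the table. Alternatives were other scalings and filters, DESeq2 1.42.0, limma 3.58.1 on log2 FPKM, and each library left out. Named were all members, Dnah9, the other assembly factors, 4 R2TP genes and, of other lists, those of highest mean FPKM. Members and lists were chosen with earlier results of these data known.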

Additional observations from a re-analysis of the deposited data

How the results depend on the processing

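Under the alternatives that kept all 4 libraries, 183 log2 folds of members kept their direction. Of these, 167 had an adjusted p and stayed uncalled; the other 16, from DESeq2 against wild type and against both together, had none. The number of genes called against wild type (8) was 4 with no filter or with the stricter filter (mean of 10 CPM), 16 with DESeq2 and 1 with limma on log2 FPKM at each pseudocount (0.1, 0.5 and 1). Against Hez (1) it was 7 with DESeq2 and 0 with limma at pseudocounts of 0.5 and 0.1. Against both together (2) it was 1 with the stricter filter, 34 with DESeq2, 1 with limma at 0.5 and 0.1 and 0 at 1, and 1 (without wild type) to 101 (without knockout 1) with 1 library left out; the cause of these moves was not tested. The median log2 fold of members moved with the stricter filter, which left 4 members, to -0.23 against wild type, 0.091 against Hez and -0.11 against both. With limma at a pseudocount of 1 it was -0.27 against wild type and 0.17 against Hez, over 7 members. With 1 library left out it was -0.32 to -0.22 against wild type, 0.075 to 0.20 against Hez, and -0.32 (without Hez) to 0.20 (without wild type) against both, so the sign of that last median rests on which reference library is kept. For Hez against wild type the median of -0.39 was -0.43 with a prior count of 0.5, -0.33 with 5 and -0.44 in the 3-group edgeR fit, which was added after seeing the data. Relative to ciliated markers, the median for Hez (0.20) was 0.23 against the markers' median and 0.083 against the summed dynein subunits, and for knockout 1 (0.27) 0.18 against the latter.

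With 1 library left out, 15 of 90 log2 folds changed sign, all of members not called. Against wild type, Cfap298 ranged from -0.19 to 0.13, Dnaaf2 from -0.0057 to 0.20 and Dnaaf5 from -0.22 to 0.068. Against Hez, Cfap298 ranged from -0.19 to 0.12, Spag1 from -0.33 to 0.070 and Cfap300 from -0.050 to 0.58. Against both together, Dnaaf1 ranged from -0.22 to 0.39, Dnaaf3 from -0.49 to 0.062, Dnaaf5 from -0.092 to 0.20, Dnaaf11 from -0.53 to 0.26, Cfap298 from -0.19 to 0.12 and Cfap300 from -0.41 to 0.29. Where a knockout library is left out, the 3-group fit has no residual degrees of freedom and gives values with no test. No paired analysis was possible because the wild-type and Hez groups have 1 library each. Members at 100 to 400 reads limit the precision: standard errors were 0.184 to 0.302 for the 8 members other than Dnaaf2 against wild type.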
